A study of Mus musculus with 28 samples.

Results

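The cells described here were the ovarian surface epithelial (OSE) cells of 4 single-cell RNA-seq libraries from mouse ovaries. A barcode was taken as an OSE cell when it had at least 1000 genes, at most 20% mitochondrial UMIs (unique molecular identifiers, 1 per captured transcript) and at least 4 of the 6 markers Upk3b, Upk1b, Krt7, Krt19, Lgals2 and Muc16, with 5 oocyte transcripts together under 0.3% of its UMIs. This gave 763 of 38274 filtered barcodes, or 1.99%. The libraries came from 7-day-old females, either wild-type (WT, C57BL/6J) or Chek2-/- (allele Chek2tm1b(EUCOMM)Hmgu), that were sham treated or given 0.5 Gy of gamma radiation from a cesium source (IR). Ovaries were taken 6 h later, pooled from 4 females per library and dissociated with collagenase, DNase and trypsin. There was 1 library per condition, so no test between conditions was possible in the single cells, and the limits given below are 95% limits of counting error only. The strain background of the mutants was not given in the sources used here. Whole ovaries of females 7 to 9 days old with the same genotypes, dose and time were sequenced in 24 bulk libraries, 6 per group, and these carry the tests.

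The OSE is the single layer of mesothelium-derived epithelium that covers the ovary. It carries keratins and uroplakins like other coelomic linings, expresses Wt1, and takes part in repair after ovulation. Type I interferon activates a complex that holds STAT2 and IRF9 and binds the interferon-stimulated response element of antiviral genes and of chemokine genes such as Cxcl10. CHEK2 is a kinase that is activated by ATM at DNA double-strand breaks and phosphorylates p53, whose targets include the cell cycle inhibitor Cdkn1a.

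The 250 bases before the start of 5 genes with large differences between irradiated and non-irradiated WT OSE cells are shown because this group of genes is known for its response element. They were chosen among genes whose 250 bases hold its core, so they are examples and no sample of the list: Ifi44, also higher in irradiated WT cells, held none, and the matches of Ifitm3 lay after the start. Sequences were taken from RefSeq promoters on build GRCm38.p6, and each is written 5′ to 3′ on the strand of the gene. Capitals mark the core GAAANNGAAA or its reverse complement, searched on both strands. Isg15 lies on the minus strand (chr4:156200819-156201068) and holds 3 overlapping matches that begin 78, 72 and 66 bases before the start. Ifit1 (chr19:34640639-34640888, plus strand) holds 2, at 104 and 85 bases. Ifit3 (chr19:34583279-34583528, plus strand) holds 2, at 156 and 122 bases. Rsad2 (chr12:26456453-26456702, minus strand) holds 1 at 120 bases and Cxcl10 (chr5:92348890-92349139, minus strand) holds 1 at 213 bases.
Isg15: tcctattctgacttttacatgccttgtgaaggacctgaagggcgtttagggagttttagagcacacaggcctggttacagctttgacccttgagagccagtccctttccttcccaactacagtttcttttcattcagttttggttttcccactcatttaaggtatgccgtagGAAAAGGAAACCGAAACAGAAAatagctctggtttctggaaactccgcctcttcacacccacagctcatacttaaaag
Ifit1: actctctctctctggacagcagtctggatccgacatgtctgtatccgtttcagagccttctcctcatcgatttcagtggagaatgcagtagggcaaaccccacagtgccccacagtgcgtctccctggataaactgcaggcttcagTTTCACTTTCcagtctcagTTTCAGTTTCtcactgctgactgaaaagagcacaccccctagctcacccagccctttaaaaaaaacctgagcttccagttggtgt
Ifit3: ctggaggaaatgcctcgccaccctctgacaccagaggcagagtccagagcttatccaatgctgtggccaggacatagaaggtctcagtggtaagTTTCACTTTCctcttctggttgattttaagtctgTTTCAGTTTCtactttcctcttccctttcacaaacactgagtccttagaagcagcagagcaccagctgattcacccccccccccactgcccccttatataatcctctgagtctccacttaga
Rsad2: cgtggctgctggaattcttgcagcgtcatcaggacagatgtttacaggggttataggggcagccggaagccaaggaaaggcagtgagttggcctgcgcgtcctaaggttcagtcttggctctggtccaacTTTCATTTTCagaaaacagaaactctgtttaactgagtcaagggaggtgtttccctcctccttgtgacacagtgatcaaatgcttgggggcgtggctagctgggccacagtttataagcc
Cxcl10: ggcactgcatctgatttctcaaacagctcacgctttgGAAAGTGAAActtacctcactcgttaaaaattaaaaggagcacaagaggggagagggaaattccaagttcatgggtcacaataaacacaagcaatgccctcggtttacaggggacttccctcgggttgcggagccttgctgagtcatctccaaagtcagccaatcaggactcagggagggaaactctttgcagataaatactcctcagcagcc
Over the full window of 300 bases, which runs 50 bases past the start, the core was found in 1079 of 27025 genes of the table (3.99%). It was present in 28 of the 48 genes of the interferon-stimulated list that matched the table (58.3%), in 1 of 31 p53 targets (3.23%) and in 0 of 4 OSE markers. Among the interferon-stimulated genes at least 1.5-fold higher in irradiated WT OSE cells, 19 of 38 matched genes held it. A match describes these letters only, and its absence says nothing about binding of a factor.

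There were 145 OSE cells in the non-irradiated WT library, 275 in the irradiated WT library, 194 in the non-irradiated Chek2-/- library and 149 in the irradiated Chek2-/- library. As shares of filtered barcodes these were 1.5% (exact binomial limits 1.27 to 1.76), 2.66% (2.36 to 2.99), 2.13% (1.85 to 2.45) and 1.62% (1.38 to 1.90). All 6 markers were present in 472 cells, 5 in 175 and 4 in 116. A further 100 barcodes with 3 markers lay just outside the rule. Marker UMIs made up 0.0784% of their summed UMIs, against 0.188% in the cells with 4 markers and 0.385% in those with all 6. The oocyte limit removed 13 barcodes.

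Genes that the rule did not use also set these cells apart from the other filtered barcodes, as a description of cells chosen on related genes. Msln (mesothelin) was 277-fold higher in OSE cells and Tm4sf5, a membrane protein of the tetraspanin superfamily, 387-fold. Lgr5, a receptor for R-spondins, was 124-fold higher. Among the 4 libraries, in the order non-irradiated WT, irradiated WT, non-irradiated Chek2-/- and irradiated Chek2-/-, Wt1 was at 643, 590, 596 and 672 counts per 1000000 UMIs (CPM) of the OSE cells. The simple-epithelium keratins Krt8 (800, 979, 790 and 777 CPM) and Krt18 (957, 1049, 1045 and 1010 CPM) were likewise at similar levels in every library. In granulosa-marked cells, a comparison class, Krt8 was at 74.8 to 106 CPM, Krt18 at 24.3 to 35.8 CPM and Wt1 at 365 to 408 CPM. The keratin and junction list (3974 to 4091 CPM in OSE cells, 626 to 740 CPM in granulosa-marked cells) and the mesothelial list (3818 to 4905 CPM and 445 to 510 CPM) thus set the cells apart in all 4 libraries, whereas the coelomic factors that include Wt1 did so little (1584 to 1716 CPM against 1251 to 1403 CPM). For the mesothelial list stroma-marked cells were nearer to OSE cells, at 1232 to 1386 CPM.

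Transcripts of other ovarian cells were also present, at lower levels for stroma, granulosa, macrophage and lymphoid markers. The 8 endothelial markers summed to 257, 196, 203 and 248 CPM, against 184, 216, 157 and 171 CPM in the other filtered barcodes. They were thus lower in OSE cells of the irradiated WT library only. The 8 stroma markers summed to 1473 to 1852 CPM in OSE cells, against 10056 to 11748 CPM in stroma-marked cells, and the 8 granulosa markers to 785 to 962 CPM against 3562 to 4391 CPM in granulosa-marked cells. At least 4 of 6 granulosa genes were detected in 243 OSE cells, at least 4 of 6 stroma genes in 186, and Scrublet called 64 doublets. The 8 macrophage markers summed to 2.63 to 4.76 CPM, with Adgre1 at 0 in all libraries, and the 8 lymphoid and neutrophil markers to 0.357 to 1.67 CPM. Mural cell markers were at 75, 209, 111 and 173 CPM and red cell genes at 111, 307, 1337 and 1310 CPM, so both were higher in the irradiated WT library than in its own control, while red cell genes were highest in the Chek2-/- libraries. Without the 7 cells that held over 100 haemoglobin UMIs, 45 of 49 interferon-stimulated genes and 24 of 34 p53 targets passed 1.5-fold in WT, against 46 and 24 with them; the part of mural transcripts was not tested. Outside OSE cells the 6 OSE markers amounted to 4.18, 11.1, 5.34 and 3.74 CPM in stroma-marked cells, highest in the irradiated WT library. Of all barcodes, 192 (0.476%) were present in more than 1 library; 4 OSE cells carried such a barcode and 0 shared it with another OSE cell. OSE cells had a median of 17829, 20446, 17924 and 27537 UMIs in the 4 libraries.

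Chek2 itself, the mutated gene, had 29 and 50 UMIs in the WT OSE cells (6.04 and 5.95 CPM) and 8 and 10 UMIs in the Chek2-/- cells (1.57 and 1.76 CPM). Transcripts of the gene were lower in both libraries labelled Chek2-/- but were still counted there.

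Radiation was compared first in WT, to ask which transcripts of the surface epithelium differed 6 h after damage. Of 10928 genes with at least 100 UMIs in OSE cells, 1423 (13.0%) differed by at least 1.5-fold, 772 (7.06%) higher and 651 (5.96%) lower in irradiated cells. Scaled without mitochondrial and ribosomal protein genes the split was 638 higher and 834 lower. In Chek2-/- OSE cells 522 genes (4.78%) passed the same fold, 323 (2.96%) higher and 199 (1.82%) lower; that count was 952 as a mean over cells and 243 with at least 200 UMIs. The medians of all genes were -0.02 and 0.02 on the log2 scale.

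Interferon-stimulated genes, which encode antiviral effectors, were higher almost throughout in irradiated WT cells. Of the 62 genes on this list 49 had enough UMIs, and 46 of them were at least 1.5-fold higher in irradiated WT OSE cells while 0 were lower, with a median log2 ratio of 1.68. In Chek2-/- cells 2 were higher and 4 lower, with a median of 0.06. Summed over the list, the 4 libraries held 2049, 5120, 1967 and 2011 CPM, which is 2.50-fold (2.44 to 2.55) in WT and 1.02-fold (0.995 to 1.05) in Chek2-/-. The irradiated WT library stood above the other 3, which were alike. Left without Scrublet doublets, 44 of 49 genes passed in WT, without cells carrying at least 4 granulosa genes 36 of 42, without those carrying at least 4 stroma genes 39 of 44, and 0 were lower each time.

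Isg15, a ubiquitin-like modifier of proteins in antiviral defence, had 29.0, 613, 30.2 and 34.6 CPM in the 4 libraries. The irradiated WT library stood above the other 3, by 21.1-fold (17.9 to 25.2) over its own control, against 1.14-fold (0.922 to 1.42) in Chek2-/-. Ifit1, which binds viral RNA lacking a normal cap, had 13.1, 290, 8.24 and 10.2 CPM, a WT ratio of 22.1 (17.2 to 28.9). Ifit3, its partner, rested on 5 UMIs in the non-irradiated WT cells and 687 in the irradiated, or 1.04 and 81.8 CPM (78.5-fold, 33.5 to 242), with 2.35 and 2.11 CPM in Chek2-/- cells. Rsad2, the radical enzyme viperin that makes a chain-ending nucleotide, had 2.08, 72.9, 1.57 and 2.99 CPM. All 4 genes had limits far from 1 in WT and limits that included 1 in Chek2-/-.

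**Figure D1:**
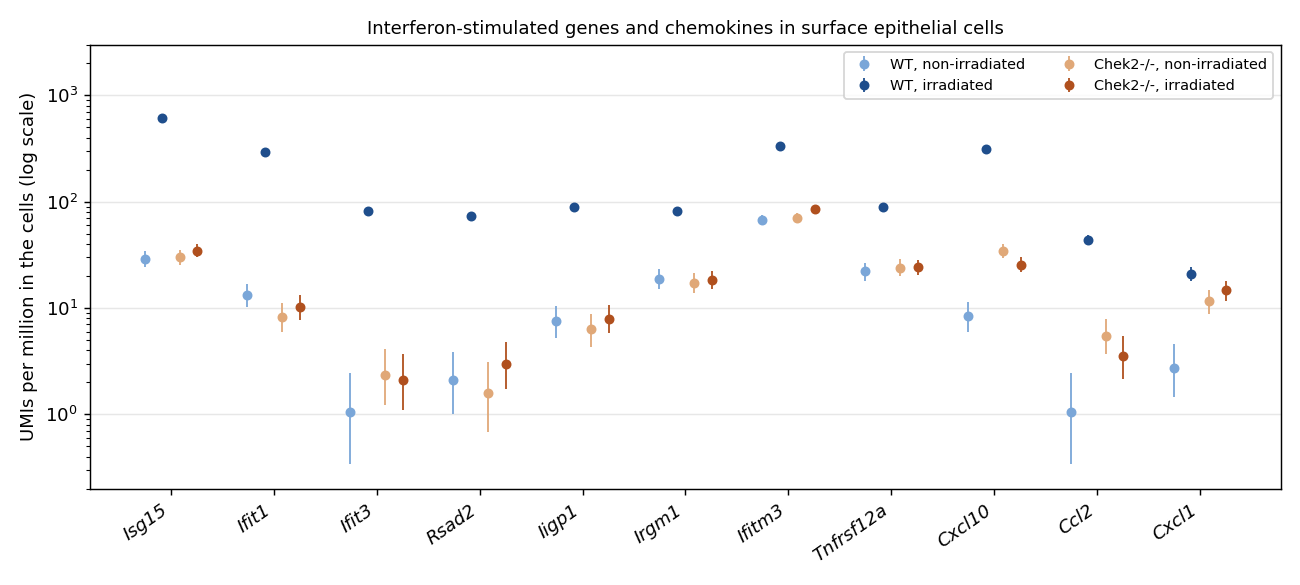
UMIs per 1000000 (log axis) of 11 genes in OSE cells of the 4 libraries; bars are exact 95% Poisson limits of counting and cover no difference between animals. The irradiated WT library is highest for all 11 genes, for example 613 CPM for Isg15 against 29.0 to 34.6 CPM in the other 3 libraries.

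Membrane and broad effectors differed less in ratio. Ifitm3, which blocks virus entry at the membrane, had 67.7, 337, 70.6 and 85.7 CPM, 4.98-fold in WT and 1.21-fold in Chek2-/-. Bst2, which tethers budding virus, had 104, 277, 77.9 and 68.0 CPM. Oasl2, of the oligoadenylate synthetase family, was 2.18-fold higher in irradiated WT cells and 0.932-fold in Chek2-/- cells, and Eif2ak2, the RNA-activated kinase PKR, 2.47-fold and 1.17-fold. Of the interferon-inducible GTPases, which act on the membranes of intracellular pathogens, 8 of 9 measured genes were higher in WT and 1 was lower in Chek2-/-. Iigp1 had 7.50, 88.9, 6.28 and 7.90 CPM (11.9-fold in WT, 8.48 to 17.1), Irgm1 had 18.8, 81.9, 17.3 and 18.4 CPM (4.37-fold) and Igtp was 4.98-fold higher in WT and 0.925-fold in Chek2-/-. Gbp3 had 7.09, 46.4, 14.3 and 6.67 CPM, so that the ratio was 6.55 in WT and 0.466 in Chek2-/-, where its non-irradiated level was the higher of the controls.

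The signalling genes of the pathway followed in part. Of 17 measured receptors, kinases, transcription factors and regulators, 7 were at least 1.5-fold higher and 1 lower in irradiated WT cells. In irradiated Chek2-/- cells 3 were higher, Irf1 among them, and 1 was lower, Irf7. Stat2 had 8.96, 49.4, 6.67 and 9.83 CPM, and Irf9 19.4, 51.9, 18.8 and 17.4 CPM, so that both were highest in the irradiated WT library. Irf7, which amplifies interferon transcription, was 6.50-fold higher in WT and 0.666-fold in Chek2-/-, where its ratio was 1.00 after thinning. Irf1, in contrast, was higher after radiation in both genotypes, 2.00-fold (1.57 to 2.58) in WT and 2.10-fold (1.70 to 2.60) in Chek2-/-. The receptor subunits Ifnar1 (37.4 to 56.1 CPM over the libraries) and Ifnar2 (39.4, 48.5, 54.2 and 56.5 CPM) and the kinase Jak1 (180, 200, 161 and 162 CPM) stayed within 1.5-fold in both irradiation comparisons.

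Of the sensors of nucleic acid, 9 had enough UMIs and 4 were higher in WT. These were the RNA sensors Ddx58 (2.87-fold), Ifih1 (3.05-fold) and Tlr3 (3.49-fold, from 9 UMIs in the control cells) and the RNA-editing enzyme Adar (2.01-fold). The DNA sensor Mb21d1 (cGAS, 1.03-fold), its adaptor Tmem173 (STING, 0.918-fold) and the adaptor Mavs (0.778-fold) were under 1.5-fold in WT. In Chek2-/- Mb21d1 was at 1.67-fold (0.971 to 2.94), from a control level 0.531-fold that of WT, and at 0.668-fold after thinning. Of 12 genes on the list of interferon ligands and related cytokines, 9 had 0 UMIs in OSE cells of every library, among them Ifnb1, Ifna1, Ifna4 and Ifng. Ifnz had 4 UMIs, all in non-irradiated Chek2-/- cells, and 2 cytokines of the list that are no interferons, Il15 and Il18, had 21, 31, 14 and 17 UMIs and 60, 136, 65 and 80 UMIs. No transcript of the listed interferons was thus counted in irradiated WT OSE cells, among 8400253 UMIs; this says what was captured and not that none was made.

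Between irradiated and non-irradiated WT OSE cells, chemokines had the largest ratio of the lists that were summed. The list reached 96.9, 486, 161 and 140 CPM, 5.02-fold (4.56 to 5.53) in WT and 0.873-fold (0.791 to 0.964) in Chek2-/-. Of 8 measured genes 5 were higher and 1 lower in WT. Cxcl10, which attracts T cells through CXCR3, had 8.34, 311, 34.5 and 25.6 CPM, 37.3-fold (27.3 to 52.4) in WT and 0.742-fold (0.592 to 0.930) in Chek2-/-. It alone made up 311 of the 486 CPM of the list in irradiated WT cells, and 8.34 of 96.9 CPM in non-irradiated WT cells. The large ratio of the list thus rests mostly on Cxcl10, and the list was not summed without it. Ccl2, which attracts monocytes, had 1.04, 43.9, 5.49 and 3.51 CPM, with 5 UMIs in the non-irradiated WT cells. Its ratio in Chek2-/- was 0.639 over all OSE cells and 4.30 without those carrying at least 4 granulosa genes. Cxcl1, which attracts neutrophils, had 2.71, 20.8, 11.6 and 14.6 CPM. In all 3 genes the non-irradiated WT library was the lowest and the irradiated WT library the highest. Cxcl16 (2.83-fold) and Csf1, a growth factor of macrophages (2.86-fold), were also higher in WT, and Il33, an alarmin of epithelial cells, was lower (6.25, 2.50, 18.2 and 15.5 CPM).

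Targets of NF-kB, the other pathway downstream of damage and cytokines, were higher for 10 of 16 genes in WT, and for 4 higher and 2 lower of 16 in Chek2-/-. The list summed to 421, 831, 530 and 604 CPM. Icam1, an adhesion molecule for leukocytes, had 2.50, 14.3, 4.32 and 7.38 CPM. Relb, a subunit of NF-kB, had 17.9, 48.7, 21.0 and 20.5 CPM, and Nfkbia, its inhibitor, 73.2, 161, 120 and 130 CPM. Ier3 was higher in both genotypes, 2.97-fold in WT and 1.66-fold in Chek2-/-. Tnfrsf12a, the receptor of the cytokine TWEAK, had 22.1, 89.6, 23.9 and 24.1 CPM, 4.06-fold in WT and 1.00-fold (0.782 to 1.29) in Chek2-/-. Of the genes of antigen presentation, 9 of 18 were higher in WT and 0 in Chek2-/-. Their sum was 1823, 2514, 2386 and 2115 CPM, so that the non-irradiated WT library was the lowest and the Chek2-/- control stood 1.31-fold above it. The immunoproteasome subunit Psmb8 (3.19-fold), the peptide transporter Tap1 (2.31-fold) and the proteasome activator Psme2 (1.57-fold) were among them, while the class I heavy chain H2-K1 was at 1.29-fold.

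The level per cell was read after each OSE cell had been thinned to 5000 UMIs, which left 141, 258, 191 and 143 cells and removed 4, 17, 3 and 6 shallower ones. The interferon-stimulated list then had a median of 10, 21, 9 and 10 UMIs per cell. The quartiles were 7 to 12 UMIs in the non-irradiated WT cells, 13 to 34.8 in the irradiated WT cells and 7 to 12 in each Chek2-/- library, and the highest single cells had 26, 102, 23 and 28. Above 14 UMIs, the 90th percentile of the non-irradiated WT cells, lay 9.93%, 66.3% (60.2 to 72.0), 11% and 13.3% of cells, with 20, 30, 34 and 19 cells near that value. The irradiated WT cells therefore spread over a wide range, in which the lowest cells overlapped the control cells. The number of list genes detected per cell had medians of 6, 12, 6 and 6.

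**Figure D2:**
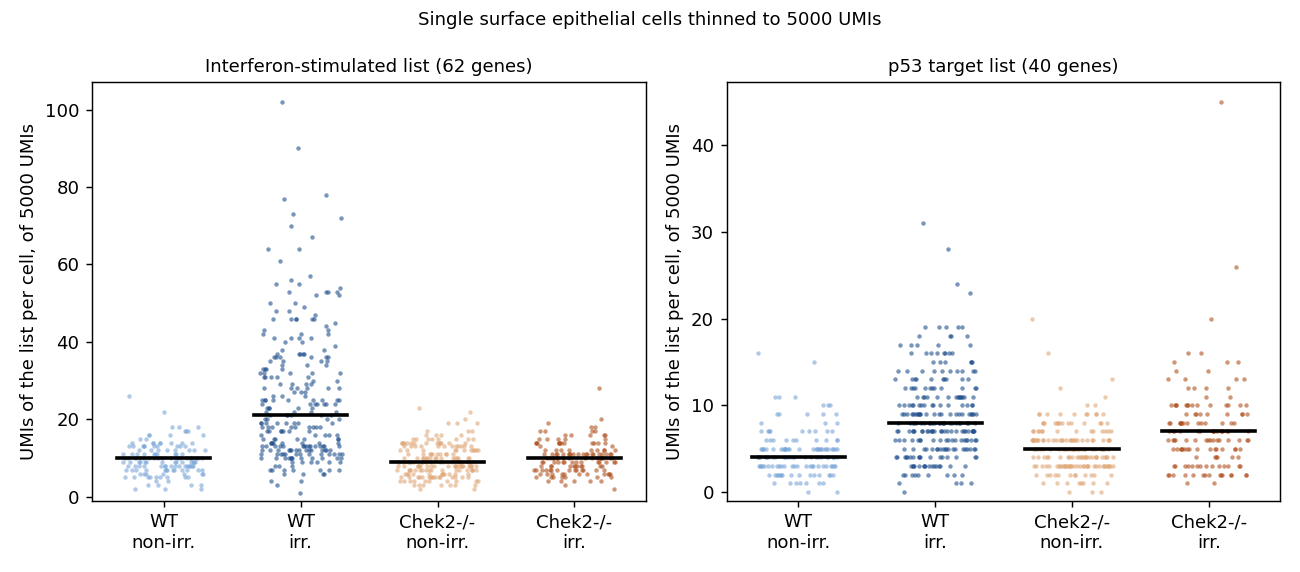
UMIs of the interferon-stimulated list (left) and of the p53 target list (right) in each OSE cell thinned to 5000 UMIs; points are cells, spread sideways at random, and black bars are medians (10, 21, 9 and 10 on the left; 4, 8, 5 and 7 on the right). The irradiated WT cells reach 102 interferon-stimulated UMIs, while the other libraries end at 23 to 28.

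Isg15 was detected in 14.9%, 67.1%, 12.0% and 12.6% of thinned OSE cells, and in 42.8%, 81.8%, 38.1% and 47.0% at full depth. In stroma-marked cells, thinned alike, it was detected in 1.24%, 1.83%, 0.689% and 0.951% (median depths of 11244 to 12873 UMIs), and in granulosa-marked cells in 1.07%, 8.18%, 1.26% and 0.887% (19522 to 23008 UMIs; 2.99%, 17.6%, 3.90% and 3.07% without thinning). At full depth the stroma-marked shares were 2.22%, 3.93%, 1.53% and 1.79%. Ifit1 was detected in 4.96%, 42.2%, 5.24% and 2.80% of thinned OSE cells and in 0.0971%, 0.523%, 0.0444% and 0.0464% of stroma-marked cells, or in 21.4%, 62.9%, 13.9% and 24.2% and in 0.265%, 1.44%, 0.109% and 0.158% without thinning. Thinned granulosa-marked cells carried Ifit1 in 0.0763%, 4.39%, 0.0342% and 0.153%, so that the share in the irradiated WT library was above its control in this class too. Cxcl10 was detected in 3.55%, 27.5%, 6.28% and 8.39% of thinned OSE cells, so that fewer of the irradiated WT cells carried it than carried Isg15.

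The same lists were read in granulosa-marked cells (11953) and stroma-marked cells (19416) of the same libraries, with no test between classes. The interferon-stimulated list was 2.50-fold higher in irradiated WT OSE cells, 1.37-fold in granulosa-marked and 1.06-fold in stroma-marked cells. Neither the GTPases among them, at 2.10-fold in OSE cells and 2.18-fold in granulosa-marked cells, nor every single gene kept this order. Ifit1 was 22.1-fold higher in OSE cells and 49.1-fold in granulosa-marked cells, where its level went from 0.346 to 17.0 CPM and so stayed below the 290 CPM of OSE cells. Isg15 went from 2.42 to 32.0 CPM in granulosa-marked cells and from 3.44 to 6.17 CPM in stroma-marked cells. Cxcl10 went from 15.5 to 90.3 CPM in granulosa-marked cells, so that its non-irradiated level was above the 8.34 CPM of OSE cells. Tnfrsf12a was 3.77-fold higher in granulosa-marked and 4.06-fold in OSE cells. As a sum the interferon-stimulated list was thus also higher in granulosa-marked cells, though under 1.5-fold. Isg15 and Ifit1 were at lower levels there than in OSE cells.

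**Figure D3:**
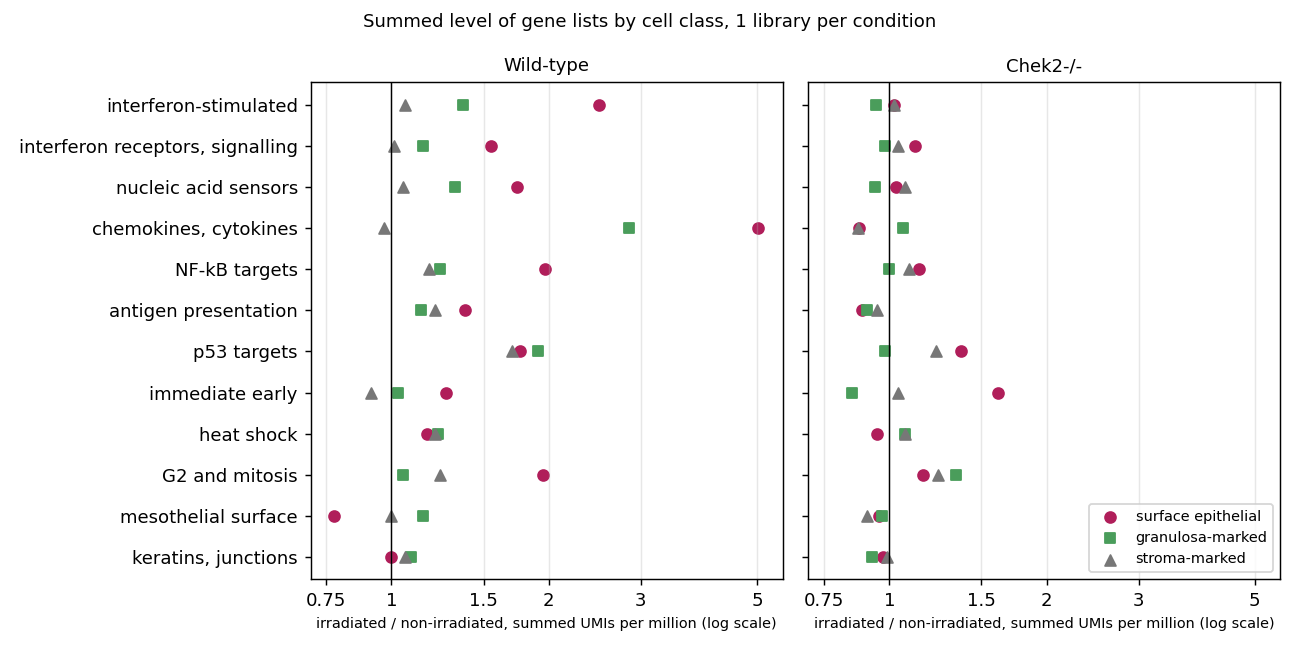
Ratio of irradiated to non-irradiated summed UMIs per 1000000 (log axis) for 12 gene lists in OSE, granulosa-marked and stroma-marked cells, WT left and Chek2-/- right; the vertical line marks 1 and there is 1 library per condition. In WT the OSE point lies farthest right for the interferon-stimulated list (2.50) and chemokines (5.02), while for p53 targets the 3 classes lie at 1.70 to 1.91. Most of the chemokine sum in irradiated WT OSE cells is Cxcl10.

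Targets of p53 were higher in irradiated WT OSE cells, and some of them in irradiated Chek2-/- cells. Of 34 measured targets 22 were at least 1.5-fold higher and 2 lower (Sesn1 and Xpc, the latter named after its value was seen) in irradiated WT cells, with a median log2 ratio of 0.91. In Chek2-/- cells 8 were higher and 0 lower, with a median of 0.17; without doublets 4 were higher and 1 lower, 5 were higher at a mitochondrial limit of 10% or with at least 200 UMIs, 10 were higher and 1 lower as a mean over cells, and 11 of 27 were higher without cells carrying at least 4 granulosa genes, where 15 of 27 were higher in WT. The summed level was 1023, 1804, 1027 and 1411 CPM, 1.76-fold (1.71 to 1.82) in WT and 1.37-fold (1.33 to 1.42) in Chek2-/-. Most of the Chek2-/- difference lay in 1 gene, Btg2: without it, an alternative chosen after seeing the data, the sums were 702, 1233, 734 and 813 CPM, or 1.76-fold (1.69 to 1.83) in WT and 1.11-fold (1.06 to 1.16) in Chek2-/-. In granulosa-marked cells the ratios were 1.91 and 0.982, and in stroma-marked cells 1.70 and 1.23.

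Cdkn1a (p21), the inhibitor of cyclin-dependent kinases, had 30.4, 96.2, 17.3 and 32.3 CPM in OSE cells, 3.16-fold (2.65 to 3.80) in WT and 1.87-fold (1.44 to 2.44) in Chek2-/-. In granulosa-marked and stroma-marked WT cells its ratios were 15.6 and 15.7, from 4.60 and 5.70 CPM without radiation, so that the level in irradiated cells was similar among classes (96.2, 71.9 and 89.5 CPM) and the non-irradiated level was highest in OSE cells. Ccng1 (cyclin G1) had 20.4, 70.5, 19.4 and 29.5 CPM, Phlda3, an inhibitor of AKT, 15.0, 67.6, 18.2 and 22.8 CPM, and the pro-apoptotic Bax 70.4, 168, 69.1 and 77.6 CPM. Aen, a nuclease of apoptosis, was 3.81-fold higher in WT. Btg2, an antiproliferative gene that is also induced by growth signals, was higher in both genotypes (321, 571, 294 and 598 CPM). Mdm2, which degrades p53, was at 1.43-fold in WT and 1.14-fold in Chek2-/-, and Trp53inp1 at 1.12-fold in WT OSE cells against 2.88-fold in granulosa-marked and 4.01-fold in stroma-marked cells.

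After thinning, p53 targets, Btg2 included, had a median of 4, 8, 5 and 7 UMIs per OSE cell. Above 8 UMIs, the 90th percentile of the non-irradiated WT cells, lay 9.22%, 45.7%, 8.90% and 30.1% of cells. Cells above the limits of both lists made up 1.42%, 33.7%, 0.524% and 6.29%. With 1 library per condition these shares describe the libraries, and their difference between conditions was not tested.

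Immediate early genes, which respond within minutes to growth factors and stress, had a higher sum after radiation in both genotypes. Of 21 measured genes 11 were at least 1.5-fold higher in WT and 14 in Chek2-/-, and 0 were lower in either. The difference between the genotypes was not tested. The list summed to 3187, 4045, 2701 and 4352 CPM, 1.27-fold in WT and 1.61-fold in Chek2-/-. Atf3 had 33.3, 80.0, 17.9 and 68.3 CPM, 2.40-fold in WT and 3.83-fold (3.04 to 4.86) in Chek2-/-. Fos had 291, 380, 229 and 569 CPM and Nr4a1, a nuclear receptor, 67.1, 75.4, 30.0 and 95.9 CPM. Zfp36, which destabilizes cytokine mRNA, was 1.74-fold higher in WT and 3.15-fold in Chek2-/-, and Junb 2.62-fold and 2.73-fold. In Chek2-/- granulosa-marked and stroma-marked cells the list was at 0.850-fold and 1.04-fold. Dissociation is known to induce these genes; its part was not tested.

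**Figure D4:**
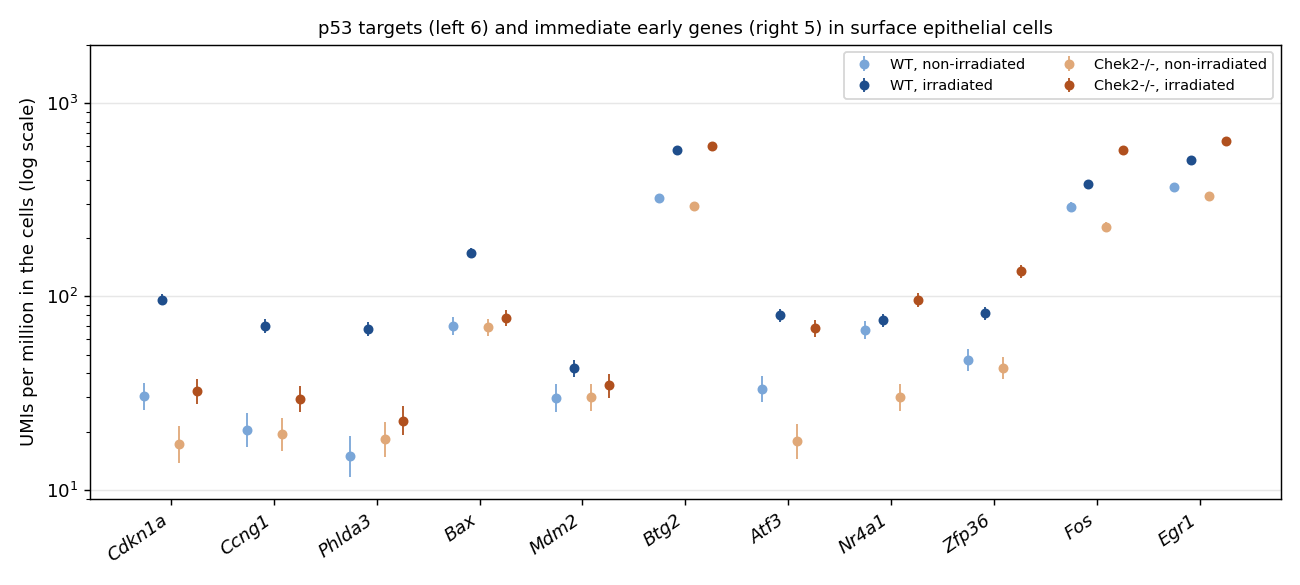
UMIs per 1000000 (log axis) of 6 p53 targets and 5 immediate early genes in OSE cells of the 4 libraries, with exact 95% Poisson limits of counting. Cdkn1a, Ccng1, Phlda3 and Bax are highest in the irradiated WT library, whereas Nr4a1, Zfp36, Fos and Egr1 are highest in the irradiated Chek2-/- library.

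Genes of G2 and mitosis differed between the non-irradiated libraries. The list of 30 genes summed to 883, 1725, 1675 and 1951 CPM. In WT 28 of 30 were at least 1.5-fold higher in irradiated cells and in Chek2-/- 0 of 30 were. Mki67, carried by dividing cells, had 67.1, 117, 127 and 143 CPM (0.762-fold in WT among cells not called dividing), and Top2a, the topoisomerase of dividing chromosomes, 90.9, 185, 144 and 216 CPM. Since Mki67 is among the genes by which dividing cells were called, its ratio in the remaining cells is no test. The non-irradiated WT library was the lowest for both Mki67 and Top2a. At least 5 of the 30 genes were detected in 12.1% (7.18 to 18.6), 22.9% (17.9 to 28.5), 15.2% (10.4 to 21.1) and 23.8% (17.1 to 31.6) of thinned OSE cells. In the cells below that limit, taken as not dividing, the interferon-stimulated list was at 2049, 5244, 1997 and 2105 CPM (2.56-fold and 1.05-fold) and the p53 list at 1042, 1920, 1029 and 1448 CPM (1.84-fold and 1.41-fold), so both differences were as large among cells that were not dividing.

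The 6 markers that chose the cells are given as a description only, since the choice itself holds their level up in every library. They summed to 3422, 3557, 3713 and 3474 CPM. Muc16, the membrane mucin CA125, had 196, 115, 168 and 158 CPM. Lgals2 (a galectin) had 420, 286, 396 and 470 CPM and Upk3b (an uroplakin) 816, 690, 843 and 801 CPM, Krt19 1396, 1791, 1706 and 1455 CPM and Krt7 339, 434, 384 and 372 CPM. Of 17 measured mesothelial surface genes 1 was higher (Cd9, 1.61-fold) and 1 lower (Lrrn4, 0.595-fold) in WT and 0 in either direction in Chek2-/-. Their sum was 4905, 3818, 4798 and 4586 CPM. Igfbp5, which binds insulin-like growth factors, had 2860, 1931, 2718 and 2563 CPM. Lgr5 had 361, 253, 252 and 270 CPM, so that its non-irradiated WT level was the highest and the other 3 were alike. Its partner ligand Rspo1 had 398, 299, 379 and 390 CPM. Aldh1a2, which makes retinoic acid, had 560, 563, 699 and 684 CPM. Jup, the junction protein plakoglobin, was 0.555-fold in WT (67.7 and 37.6 CPM) and 1.17-fold in Chek2-/-.

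Among genes with at least 200 UMIs, 3 of the 8 with the smallest WT ratios are given here, and their levels were low. Cacng5, a subunit related to those of calcium channels, had 21.7, 5.83, 23.7 and 33.7 CPM (0.269-fold, 0.188 to 0.381) in OSE cells. Mylk3, a myosin light chain kinase, had 16.9, 5.24, 13.5 and 15.8 CPM. Fmo5, an oxidizing enzyme, had 13.5, 5.12, 13.3 and 12.5 CPM. In each of these 3 genes the irradiated WT library was the lowest. Hspa8, the constitutive HSP70 chaperone, was in contrast 1.60-fold higher (1398, 2238, 1593 and 1576 CPM). With the same minimum of 200 UMIs, Dlk1 was the gene with the smallest ratio in Chek2-/- (35.4, 31.8, 36.3 and 13.2 CPM).

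Without radiation 810 of 10928 genes (7.41%) differed by at least 1.5-fold between Chek2-/- and WT OSE cells, 413 (3.78%) higher and 397 (3.63%) lower in Chek2-/-. Each of these libraries is also the control of an irradiation comparison above. Cxcl10 was 4.14-fold (2.92 to 6.00), Ccl2 5.27-fold (2.01 to 17.5) and Cxcl1 4.27-fold (2.32 to 8.49) higher in Chek2-/-, whereas the interferon-stimulated list was at 0.960-fold (0.933 to 0.987), with 8 of 49 genes higher and 3 lower. The haemoglobin gene Hbb-bs was 10.8-fold higher (72.7 and 785 CPM), and over 100 haemoglobin UMIs were found in 0, 3, 2 and 2 OSE cells. Without those cells its ratio was 0.805. Gm2044, a predicted gene, was at 0.154-fold (0.121 to 0.195).

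In whole ovaries 288 of 26790 genes (1.08%) were called between irradiated and non-irradiated WT at an adjusted p of at most 0.05 and 2-fold (edgeR quasi-likelihood test, Benjamini-Hochberg), 230 of them (0.859%) higher. There was 1 call (0.00373%) in Chek2-/- and 167 (0.623%) for the interaction of genotype and irradiation. DESeq2 made 9 calls in Chek2-/-, 3 higher and 6 lower, and called 185 genes higher and 46 lower for the interaction. By edgeR without a minimum fold the shares were 2.41%, 0.0112% and 1.03%. In such tissue fewer cells of a type and less RNA per cell cannot be told apart. Libraries held 17824920 to 32605519 counts. Red cell genes reached 10445 CPM in 1 non-irradiated Chek2-/- library (median of its group 641) and 7047 CPM in 1 irradiated Chek2-/- library (median 457), and lymphoid and neutrophil markers reached 860 CPM in 1 irradiated WT and 856 CPM in 1 irradiated Chek2-/- library (group medians 2.90 and 4.27).

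Of the interferon-stimulated list 0 of 62 genes were called in WT by edgeR, 22 had an unadjusted p of at most 0.05, and DESeq2 called 1. Over all 26790 genes 3059 had such an unadjusted p in WT by edgeR, and 3044 with the block described next. With the replicate number as a block, which no label ties to a litter or day, edgeR called 3 and 35 had such an unadjusted p. Without the block the direction in WT was higher for 59 of 62 genes, with a median log2 change of 0.51. In Chek2-/- it was higher for 57 of 62 genes, with a median of 0.36. The change was larger in WT for 46 of 62 genes, with a median interaction of 0.20. The WT count at an adjusted p of at most 0.05 without a minimum fold was also 0. In Chek2-/- and for the interaction 0 genes of the list were called by either tool. By edgeR 2 and 1 had an unadjusted p of at most 0.05, against 1179 and 2449 over all genes. Isg15 ranged from 1.49 to 12.0 CPM (median 2.55) in non-irradiated and from 4.74 to 15.4 CPM (median 8.80) in irradiated WT ovaries, a log2 change of 1.21 (SE 0.61, adjusted p = 0.475). In Chek2-/- it ranged from 1.87 to 8.95 CPM (median 3.57) and from 1.53 to 28.2 CPM (median 3.52). The groups of each genotype overlapped. Ifit1 had medians of 1.56 and 11.6 CPM in WT and 2.08 and 2.51 CPM in Chek2-/- (log2 change in WT 1.16, SE 0.85, adjusted p = 0.717). In the fit without the block, the change of Ifit1 was nevertheless larger in Chek2-/- than in WT. Its highest irradiated Chek2-/- library had 35.9 CPM and the next 3.13 CPM. Rsad2 was fitted as lower in irradiated WT, with 43.9 CPM in the highest non-irradiated WT library and 4.61 CPM in the next.

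A pair of libraries stood apart from their own groups in this list. The sum was 968 to 1108 CPM in 5 of the non-irradiated WT libraries and 1528 CPM in replicate 5, and 904 to 1132 CPM in 5 of the irradiated Chek2-/- libraries and 2506 CPM in replicate 6. Irradiated WT libraries had 1115 to 1744 CPM. Non-irradiated Chek2-/- libraries had 923 to 982 CPM, except for 1303 in replicate 5 and 1344 in replicate 6, which were kept. Replicate 6 of the irradiated Chek2-/- group also had fewer counts of 8 oocyte markers (1105 CPM against 1751 to 1962 in the rest of its group) and of 8 granulosa markers (924 against 1201 to 1460), and more of the mesothelial list (2654 against 1359 to 1875). Replicate 6 of the non-irradiated Chek2-/- group, not left out here, had 975 CPM of oocyte markers and 2886 CPM of the mesothelial list. The part of these differences in the interferon result was not tested. Without replicate 5 of the non-irradiated WT group and replicate 6 of the irradiated Chek2-/- group, the WT count at an adjusted p of at most 0.05 was 31 of 62 genes, 16 of them past 2-fold, and the interaction count was 14, 7 of them past 2-fold. Over all 26790 genes the counts of that fit were 609 in WT (past 2-fold, 224 higher and 42 lower) and 292 in the interaction. In Chek2-/- that fit had 9 of 62 list genes higher, with a median log2 change of -0.17. With all libraries these values were 57 and 0.36. With either library alone left out the interaction count of the list by edgeR was 0, with 5 and 29 genes at an unadjusted p of at most 0.05. Over all genes 2526 and 2782 had such an unadjusted p for the interaction. Without replicate 5 of the non-irradiated WT group alone the WT count of the list was 6 (5 past 2-fold), and without replicate 6 of the irradiated Chek2-/- group alone it was 8 (4 past 2-fold). Over all genes the WT counts of these 2 fits were 515 and 723, and the interaction counts 240 and 325. Without both Isg15 changed by 1.99 (adjusted p = 0.00397) and Ifit1 by 3.02 (adjusted p = 0.000654) in WT. These libraries were picked by the same genes after their values were seen, so the counts show how far the result depends on them and are no test.

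**Figure D5:**
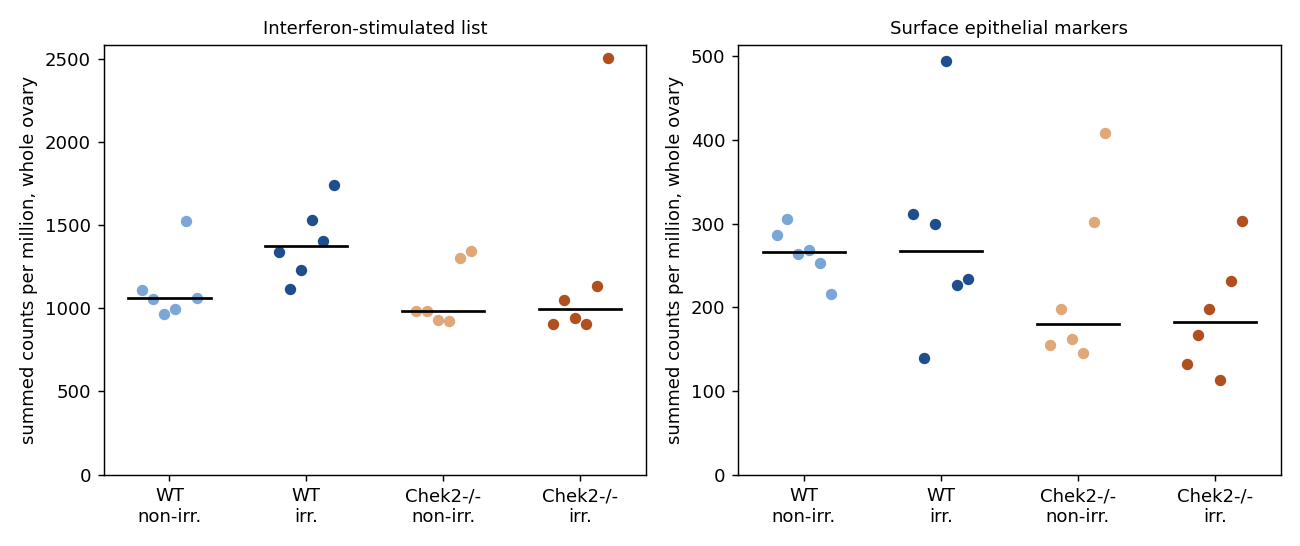
Summed counts per 1000000 of the interferon-stimulated list (left) and of the OSE markers (right) in 24 whole-ovary libraries; points are libraries and black bars group medians. On the left, 1 non-irradiated WT library (1528) and 1 irradiated Chek2-/- library (2506) lie above the rest of their groups. Replicates 5 and 6 of the non-irradiated Chek2-/- group (1303 and 1344) lie above the rest of theirs. On the right the groups overlap.

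The p53 targets gave a different result in the same libraries. Of 39 tested targets 17 were called in WT, all higher, and 27 had an adjusted p of at most 0.05; for Chek2-/- the numbers were 1 and 3, and for the interaction 16 and 26. Ccng1 had 37.4 to 43.2 CPM and 151 to 173 CPM in WT, without overlap, a log2 change of 2.03 (SE 0.05, adjusted p = 2.61e-19), and changed by 0.56 (SE 0.05, adjusted p = 6.82e-07) in Chek2-/-. Its interaction was 1.47 (SE 0.07, adjusted p = 8.12e-13). Cdkn1a changed by 1.67 (SE 0.13, adjusted p = 2.48e-09) in WT with an interaction of 1.36 (SE 0.18, adjusted p = 5.36e-05). Bax changed by 0.60 (SE 0.06, adjusted p = 2.38e-07) with an interaction of 0.48 (SE 0.08, adjusted p = 0.00224), below 2-fold.

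OSE markers showed how much of this tissue can be read in whole ovaries. Of the 5 that were tested 0 were called in WT, in Chek2-/- or for the interaction, by edgeR or DESeq2, and 0 had an unadjusted p of at most 0.05. Their sum ranged from 216 to 306 CPM in non-irradiated WT, 140 to 495 in irradiated WT, 145 to 409 in non-irradiated Chek2-/- and 113 to 303 in irradiated Chek2-/- ovaries, so the groups overlapped and the irradiated WT group was the most spread. Upk3b ranged from 29.4 to 48.7 CPM and up to 82.6 CPM in the WT groups, and from 11.4 to 49.3 CPM and from 11.4 to 35.6 CPM in the Chek2-/- groups.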

How the data were processed

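Ovaries were profiled as 4 single-cell libraries and 24 bulk libraries, 6 per group. The single-cell files hold UMI counts of 31053 genes per barcode, made by the authors with Cell Ranger on mm10 and deposited without normalization. The bulk file holds expected counts per gene, estimated by the authors with Salmon 1.3.0 and deposited for 44674 genes; they were rounded to whole counts here. Tool versions were taken from the submitters' processing notes. The OSE cells and the gene lists were chosen with earlier results of these data known.

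UMIs of OSE cells were summed per library and divided by their total. Genes with at least 100 UMIs were compared by ratio, with exact conditional limits at 95%; a fold of 1.5 was the call, with no test. Summed totals were 4798147 to 8400253 UMIs per library, and the limits follow from the UMIs counted. Doublets were called with Scrublet in scanpy 1.11.5 and kept. Granulosa-marked and stroma-marked cells had at least 4 of 6 genes of their class. Bulk counts were tested with edgeR 4.0.16 (quasi-likelihood, TMM, Benjamini-Hochberg; R 4.3.3), all 4 groups in 1 fit; DESeq2 1.42.0 was an alternative. The steps were tested on simulated data. Named genes were those the study names for this epithelium, the 8 highest and 8 lowest ratios per comparison, up to 8 past 1.5-fold and 4 others per list, the 15 leading genes and Chek2. The highest and lowest ratios were taken among genes with at least 200 UMIs. Nothing in the sources says that bulk libraries of a group came from separate litters, so p-values measure the spread between these libraries. The text describes only some of the genes that the rule for named genes allows, and 1 item is not reported here.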

Additional observations from a re-analysis of the deposited data

Results flagged for a closer look

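In whole ovaries 19 of 72 groups of 6 libraries had 1 library whose gap to the next, as a share of the range of its group, passed Dixon's 95% critical value; chance does this in about 1 in 20 groups, and the genes tested here move together. In each case it was the highest library. Among non-irradiated WT libraries the highest had 12.0 CPM of Isg15, 21.8 of Ifit1, 28.8 of Ifit3, 43.9 of Rsad2 and 16.4 of Iigp1, and the interferon-stimulated list reached 1528 CPM. Among irradiated Chek2-/- libraries the highest had 28.2 CPM of Isg15, 35.9 of Ifit1, 57.6 of Ifit3, 88.6 of Rsad2, 173 of Ifitm3, 30.7 of Iigp1 and 60.2 of Irgm1, and the list reached 2506 CPM. Among non-irradiated Chek2-/- libraries the highest had 8.95 CPM of Isg15, 25.8 of Rsad2 and 115 of Ifitm3. Among irradiated WT libraries the highest had 20.2 CPM of Rsad2 and 34.2 of Iigp1.

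The effect of irradiation in whole ovaries differed between genotypes by the tested interaction (edgeR, adjusted) for Bax by 0.48, for Cdkn1a by 1.36 and for Ccng1 by 1.47 on the log2 scale, each larger in WT.

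In OSE cells 54 of 10928 genes passed 1.5-fold in opposite directions in the genotypes, 32 higher and 22 lower in irradiated WT cells, which was not tested since each condition is 1 library. Of the genes followed here 8 were among them. The ratios of irradiated to non-irradiated cells in WT and in Chek2-/- were 22.5 and 0.537 for Apol9a, 42.2 and 0.639 for Ccl2, 6.55 and 0.466 for Gbp3, and 6.50 and 0.666 for Irf7. They were 1.55 and 0.503 for Pax8, 1.57 and 0.583 for Rarres1, 0.655 and 1.55 for Gm2044, and 0.346 and 1.59 for Tpbgl. The opposite direction did not hold under every alternative: with the cells or depth chosen otherwise the Chek2-/- ratio came to 4.30, 2.26 or 1.04 for Ccl2, 0.717 or 0.890 for Gm2044, 1.08 or 1.21 for Pax8 and 1.00 for Irf7, and the WT ratio of Pax8 to 0.996 or 0.972.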

How the results depend on the processing

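Of 1815 alternative values of the named ratios in OSE cells, 1515 moved by less than their limits, 286 moved further without reversing and 14 reversed. Of 165 in whole ovaries 162 kept their direction and their side of the threshold and 3 reversed. The fits with libraries left out are not among these 165 values. Without both of those libraries Isg15 and Ifit1 crossed the threshold in WT. The causes were not tested. Without cells carrying at least 4 granulosa genes the Chek2-/- ratio was 4.30 for Ccl2, 0.717 for Gm2044 and 1.08 for Pax8; without those carrying at least 4 stroma genes it was 2.26 for Ccl2, and as a mean over cells 1.04. Thinned to 5000 UMIs it was 0.890 for Gm2044, 1.00 for Irf7, 0.668 for Mb21d1 and 1.21 for Pax8. The WT ratio of Pax8 was 0.972 thinned and 0.996 with at least 5 markers. Among cells not called dividing Mki67 was at 0.762 in WT and, without radiation, at 0.273 in Chek2-/- against WT. Hbb-bs without haemoglobin-rich cells was at 0.805. Mki67 and Hbb-bs belong to the lists by which those cells were removed, so these values are no test of them.

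Thinned, the genes past 1.5-fold numbered 817 of 5411 in WT and 524 between the non-irradiated genotypes, with 21 interferon-stimulated genes and 8 p53 targets in WT and 2 p53 targets in Chek2-/-, since fewer genes had enough UMIs. As means over cells 952 genes passed in Chek2-/-, 10 of them interferon-stimulated. With at least 200 UMIs 243 passed in Chek2-/- and 465 between the non-irradiated genotypes. The p53 targets past 1.5-fold in Chek2-/- numbered 5 without doublets (1 of them lower), 5 at a mitochondrial limit of 10% and 5 with at least 200 UMIs. In whole ovaries without a minimum fold there were 646 calls in WT, 3 in Chek2-/- and 277 for the interaction, and DESeq2 made 9 in Chek2-/-.

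Libraries with the same replicate number deviated together only in part (correlations of -0.18 to 0.64 in WT and 0.06 to 0.94 in Chek2-/-), so the numbers were not taken to pair them. With the replicate number as a block there were 262, 1 and 147 calls, 3 of the 62 interferon-stimulated genes were called in WT (35 at an unadjusted p of at most 0.05) against 0 (22) without it, and 3 values reversed: Ifit1 in the interaction (1.06), Rsad2 in WT (0.99) and Upk3b in WT (-0.01). Over all 26790 genes 3044 had such an unadjusted p in WT with the block and 3059 without it. Single-cell libraries carry no replicates, so depth and counting error limit the ratios in OSE cells, and the spread between animals was not measured.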
